A study of Mus musculus with 8 samples.

Results

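The vacuolar proton pump (V-ATPase) was followed through the messenger RNA levels of 10 of its genes in sorted mouse blood monocytes. The 10 genes were taken by name, and each was read from its brightest probe set over all arrays, among those annotated to no other gene symbol. All 10 were found among 18193 genes that could be read in this way. Blood monocytes of male C57BL/6 mice were sorted as Gr1lo cells, the nonclassical subset low in Ly-6C, and as Gr1hi cells, the classical subset high in Ly-6C. Mice had been given 1 µm Fluoresbrite YG latex beads intravenously, and cells were sorted 4 days later into those that carried beads and those that did not. This gave Gr1lo cells with beads, Gr1lo cells without beads, Gr1hi cells with beads and Gr1hi cells without beads, with 2 arrays in each of the 4 groups and 8 arrays in all. The arrays are described as biological replicates, but how many mice or cells fed each array is not given in the sources used here. One description places clodronate liposomes, which deplete phagocytes, 3 days before the beads for all mice, whereas the treatment protocol uses them for the classical labelling and leaves them out for the nonclassical labelling. On the second reading, subset and pretreatment cannot be told apart.

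The pump is a rotary machine in the membranes of endosomes, lysosomes and phagosomes. Its cytosolic V1 sector hydrolyses ATP and turns a rotor, and its membrane-embedded V0 sector moves protons into the organelle lumen as the rotor turns. Acid in the lumen activates the hydrolases with which monocytes and macrophages break down what they have engulfed, and V1 can detach from V0 to switch the pump off. Many subunit genes carry binding sites for the MiT/TFE transcription factors, whose core is the hexamer CACGTG.

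Values are log2 expression values normalised by the authors with RMA, so a difference of 1 is a change of 2-fold. Levels are compared between groups for 1 gene at a time and never between genes, because probe sets differ in brightness. Array medians lay between 6.12 and 6.19. A background level of 6.98 was taken as the 95th percentile of 114 olfactory, vomeronasal and taste receptor and keratin-associated genes. That most of these are little used by the sorted cells was assumed and not tested. Between 8615 and 8865 genes per array lay above this level. Over all probe sets, Pearson's r was 0.9935 to 0.9963 between the arrays of a group and 0.9714 to 0.9776 between arrays of different subsets. Between arrays with and without beads of the same subset it was 0.9894 to 0.9956, which overlaps the range within groups. The second Gr1lo array without beads correlated at 0.9948 with each Gr1lo array with beads and at 0.9935 with its replicate. Markers fitted the sort labels: the mean log2 level of 12 nonclassical markers lay between 11.69 and 11.98 on the Gr1lo arrays and between 8.41 and 8.90 on the Gr1hi arrays, and that of 8 classical markers lay between 9.55 and 11.58 on the Gr1lo arrays and between 12.60 and 12.90 on the Gr1hi arrays. The Ly-6C genes themselves were not analysed here.

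All 10 pump genes lay above the background level on all 8 arrays. In bulk RNA of sorted cells, fewer cells of a type and less RNA per cell cannot be told apart.

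Promoters were looked up because most of the 10 pump genes moved together between the subsets, as described below. RefSeq promoters of GRCm38.p6, 250 bases before to 50 bases after the annotated start, were at hand for 7 of the 10 genes, and not for Atp6v1b2, Atp6v1c1 and Atp6v1h. The hexamer CACGTG, which reads the same on both strands, was found in 3 of these 7: at position -131 in Atp6v1a, at -36 and -18 in Atp6v0b, and at -3 in Atp6v0d1, counted from the start to the first base of the hexamer. It was found in 1 of 12 further pump subunit genes, Atp6v0e, and in 8.09% of 27025 mouse genes of the same table. The stretch from 150 bases before to 10 bases after the start is printed 5′ to 3′ for the 3 genes that hold the hexamer, in capitals, and for 2 genes without it, Atp6v1e1 and Atp6ap1, whose subset differences were not called. Averaged over bead state, Atp6v1a and Atp6v0d1, with the hexamer, were called lower in Gr1lo cells. So were Atp6v0a1, Atp6ap2 and Atp6v1d, which lack it in the stretch searched. Atp6v0b, with 2 copies, and Atp6v0e were not called. Atp6v1b2, Atp6v1c1 and Atp6v1h, called lower, had no promoter to search. Whether the hexamer has a part in the calls was not tested. The stretches lie at chr16:44139250-44139409 (minus strand) for Atp6v1a, chr4:117887320-117887479 (minus strand) for Atp6v0b, chr8:105566055-105566214 (minus strand) for Atp6v0d1, chr6:120822689-120822848 (minus strand) for Atp6v1e1 and chrX:74296947-74297106 (plus strand) for Atp6ap1.
Atp6v1a: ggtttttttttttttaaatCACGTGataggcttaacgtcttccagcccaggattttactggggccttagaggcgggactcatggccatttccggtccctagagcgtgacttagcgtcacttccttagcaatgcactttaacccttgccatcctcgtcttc
Atp6v0b: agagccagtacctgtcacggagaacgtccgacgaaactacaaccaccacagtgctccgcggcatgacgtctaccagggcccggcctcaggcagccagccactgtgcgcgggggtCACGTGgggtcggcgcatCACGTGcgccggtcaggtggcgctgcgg
Atp6v0d1: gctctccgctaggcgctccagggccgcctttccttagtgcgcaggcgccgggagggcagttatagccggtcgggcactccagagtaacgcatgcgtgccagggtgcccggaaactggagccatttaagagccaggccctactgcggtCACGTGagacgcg
Atp6v1e1: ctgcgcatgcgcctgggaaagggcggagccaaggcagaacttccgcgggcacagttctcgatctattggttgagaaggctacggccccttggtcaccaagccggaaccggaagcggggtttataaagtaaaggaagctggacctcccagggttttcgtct
Atp6ap1: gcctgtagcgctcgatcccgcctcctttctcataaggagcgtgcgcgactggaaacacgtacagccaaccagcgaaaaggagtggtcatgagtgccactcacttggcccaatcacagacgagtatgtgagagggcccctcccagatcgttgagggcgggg
A match describes these letters alone, and whether a factor binds there was not tested.

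The first comparison asked how the subsets differ. Most of the 10 pump genes were lower in Gr1lo than in Gr1hi monocytes, with and without beads. Of the 10 genes, 7 were lower in Gr1lo cells among bead carriers, 6 among cells without beads and 7 when the difference was averaged over bead state, each at an adjusted p under 0.05 in limma (Benjamini-Hochberg over 18193 genes), and 0 were higher. Over all genes tested, 14.6% were called lower and 11.8% higher with beads, 13.6% lower and 10% higher without beads, and 20.9% lower and 14.8% higher on average. Among the 8788 genes with a mean above background, the shares called lower were 24.3% with beads, 20.9% without beads and 30.7% on average. The median log2 difference of the 10 genes was -0.64 with beads, -0.57 without beads and -0.59 on average, beside -0.03, -0.07 and -0.05 over all genes.

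In the V1 sector the largest difference was in Atp6v1a, which encodes the catalytic A subunit that hydrolyses ATP. Its log2 level was 9.69 and 9.66 in Gr1lo cells with beads, 9.76 and 9.68 in Gr1lo cells without beads, 11.20 and 11.18 in Gr1hi cells with beads, and 10.87 and 10.80 in Gr1hi cells without beads. All 4 Gr1lo arrays lay more than 1 log2 unit below all 4 Gr1hi arrays. Averaged over bead state, Atp6v1a fell by 1.31 ± 0.06 in Gr1lo cells relative to Gr1hi cells (log2, SE; 2.49-fold lower; adjusted p = 9.64e-07 in limma), and it ranked 116 by p among all genes. The difference was -1.51 ± 0.08 among bead carriers and -1.11 ± 0.08 among cells without beads.

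Atp6v1c1 encodes the C subunit, a clamp of the stator that leaves the complex when V1 detaches. It read 10.74 and 10.70 in Gr1lo cells with beads, 10.69 and 10.68 in Gr1lo cells without beads, 11.92 and 11.84 in Gr1hi cells with beads, and 11.36 and 11.46 in Gr1hi cells without beads. Here too every Gr1lo array lay below every Gr1hi array, and the Gr1hi arrays with beads stood above those without. The average subset difference was -0.94 ± 0.06 (1.92-fold lower in Gr1lo, adjusted p = 6.71e-06 in limma).

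Atp6v1h, the H subunit that links V1 to V0 and holds detached V1 inactive, read 9.03 and 8.90 in Gr1lo cells with beads, 9.24 and 9.14 in Gr1lo cells without beads, 9.92 and 9.85 in Gr1hi cells with beads, and 9.77 and 9.74 in Gr1hi cells without beads. Its 4 groups did not overlap one another, and its average subset difference was -0.74 ± 0.06 (1.67-fold lower in Gr1lo, adjusted p = 3.17e-05 in limma). Atp6v1b2, the B subunit that alternates with A in the catalytic ring, read 11.61 and 11.56 in Gr1lo cells with beads, 11.67 on both arrays of Gr1lo cells without beads, 12.29 on both arrays of Gr1hi cells with beads, and 12.33 and 12.29 in Gr1hi cells without beads. All Gr1lo arrays lay below all Gr1hi arrays, with an average difference of -0.67 ± 0.05 (1.60-fold lower in Gr1lo, adjusted p = 2.61e-05 in limma).

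Atp6v1e1, the E subunit of the peripheral stalk, was the V1 gene among the 10 with no called difference. It read 11.53 and 11.54 in Gr1lo cells with beads, 11.62 and 11.60 in Gr1lo cells without beads, 11.74 and 11.65 in Gr1hi cells with beads, and 11.60 and 11.62 in Gr1hi cells without beads. The subsets overlapped, and the average difference was -0.08 ± 0.06 (95% interval -0.21 to 0.05, adjusted p = 0.305 in limma). The interval lies above the intervals of Atp6v1a, -1.44 to -1.18, and Atp6v1h, -0.88 to -0.60.

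**Figure D1:**
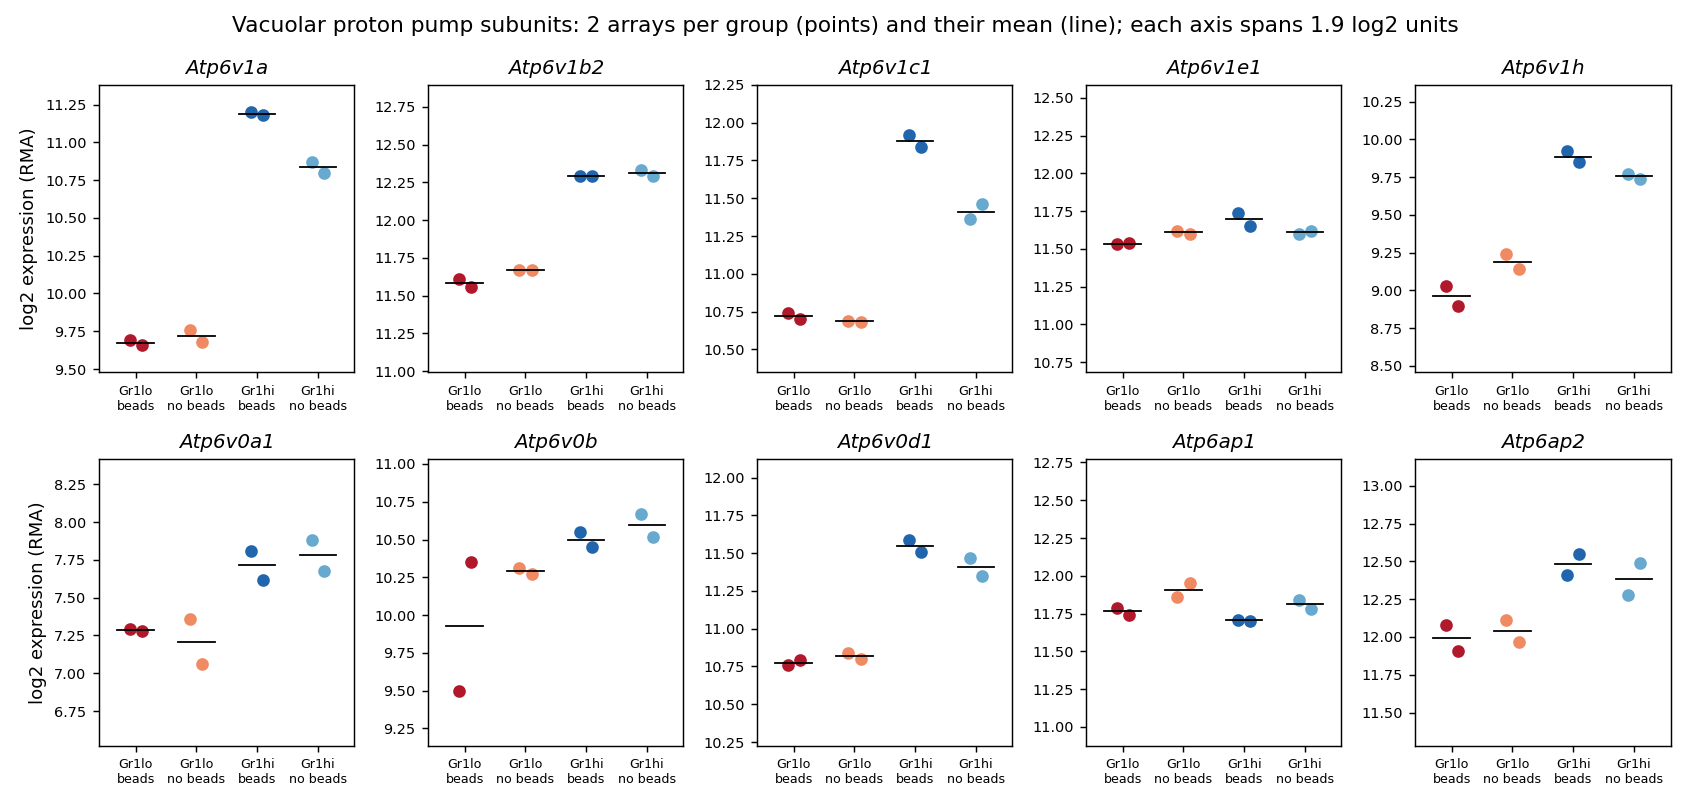
Log2 expression (RMA, vertical axes, each spanning 1.9 log2 units) of the 10 pump genes in Gr1lo cells with and without beads and in Gr1hi cells with and without beads; points are the 2 arrays of a group and lines their mean. For 8 of the 10 genes all Gr1lo arrays lie below all Gr1hi arrays; Atp6v1e1 and Atp6ap1 overlap between the subsets, and Atp6v0b has 1 Gr1lo array with beads at 9.50, below its other 7 arrays.

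In the V0 sector, Atp6v0d1 encodes the d subunit, the collar that couples the rotor of V1 to the ring of V0. It read 10.76 and 10.79 in Gr1lo cells with beads, 10.84 and 10.80 in Gr1lo cells without beads, 11.59 and 11.51 in Gr1hi cells with beads, and 11.47 and 11.35 in Gr1hi cells without beads. The Gr1lo arrays again lay below the Gr1hi arrays, and the average difference was -0.68 ± 0.06 (1.60-fold lower in Gr1lo, adjusted p = 4.02e-05 in limma).

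Atp6v0a1 encodes an isoform of the a subunit, which holds the channels through which protons reach and leave the ring. Its level was 7.29 and 7.28 in Gr1lo cells with beads, 7.36 and 7.06 in Gr1lo cells without beads, 7.81 and 7.62 in Gr1hi cells with beads, and 7.88 and 7.68 in Gr1hi cells without beads. This was the dimmest of the 10 probe sets, nearest to the background level, and the subsets did not overlap. The average difference was -0.50 ± 0.09 (1.42-fold lower in Gr1lo, adjusted p = 0.00207 in limma). Its calls at each bead state were not kept with fewer arrays. With beads the difference was -0.43 (adjusted p = 0.0323 in limma). Leaving out any 1 of the 4 bead arrays lost the call, with differences of -0.52 to -0.34. Without either Gr1lo array the difference itself stayed at -0.43. Without beads the difference was -0.57 (adjusted p = 0.0110), and it became -0.47 (adjusted p = 0.0814) without the first Gr1hi array and -0.42 (adjusted p = 0.0566) without the second Gr1lo array.

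Atp6v0b encodes a proteolipid of the proton-carrying ring. It read 9.50 and 10.35 in Gr1lo cells with beads, 10.31 and 10.27 in Gr1lo cells without beads, 10.55 and 10.45 in Gr1hi cells with beads, and 10.67 and 10.52 in Gr1hi cells without beads. All Gr1lo arrays were below all Gr1hi arrays, but the first Gr1lo array with beads stood well below the other 3 Gr1lo arrays. The average difference was -0.44 ± 0.16 (95% interval -0.80 to -0.08, adjusted p = 0.0595 in limma) and was not called. Without that array it was -0.23 with an adjusted p of 0.0468, and without the second Gr1lo array with beads it was -0.65 with an adjusted p of 0.000517. With either left out, the gap between these arrays no longer enters the spread. All 3 Atp6v0b probe sets were low on the first Gr1lo array with beads, at 9.50, 8.92 and 9.21, beside 10.35, 10.01 and 9.66 on the second.

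The accessory proteins, which help build the pump and travel with it, were read next. Atp6ap2, also known as the prorenin receptor, read 12.08 and 11.91 in Gr1lo cells with beads, 12.11 and 11.97 in Gr1lo cells without beads, 12.41 and 12.55 in Gr1hi cells with beads, and 12.28 and 12.49 in Gr1hi cells without beads. It was lower in Gr1lo cells on average (-0.42 ± 0.08, 1.33-fold, adjusted p = 0.00298 in limma) and among bead carriers (-0.49, adjusted p = 0.0111), whereas the difference without beads, -0.35, had an adjusted p of 0.0530. The call among bead carriers was lost without the second Gr1hi array with beads (-0.42, adjusted p = 0.0812) or the second Gr1lo array with beads (-0.40, adjusted p = 0.0733).

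Atp6ap1, known as Ac45, read 11.79 and 11.74 in Gr1lo cells with beads, 11.86 and 11.95 in Gr1lo cells without beads, 11.71 and 11.70 in Gr1hi cells with beads, and 11.84 and 11.78 in Gr1hi cells without beads. It was the only one of the 10 with a positive average difference, 0.08 ± 0.06 (95% interval -0.05 to 0.21, adjusted p = 0.345 in limma), which was not called. At each bead state its Gr1lo arrays lay just above its Gr1hi arrays, an ordering that 26.8% of all genes showed with beads and 21.5% without beads. Of the 8788 genes with a mean above background, 3172 showed it with beads and 2909 without beads.

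Read by whether the groups overlapped, 9 of the 10 genes had both Gr1lo arrays below both Gr1hi arrays with beads, against 34.6% of all genes, and 8 of 10 had this without beads, against 40.5%. Across all 8 arrays, 8 of 10 had every Gr1lo array below every Gr1hi array, against 19.7% of all genes. Of the 8788 genes with a mean above background, 3673 had their Gr1lo arrays lower in this way with beads, 3589 without beads and 2524 across all 8 arrays. In the order of the 4 group means, Atp6v1a, Atp6v1h, Atp6v0d1 and Atp6ap2 ran from Gr1hi with beads through Gr1hi without beads and Gr1lo without beads to Gr1lo with beads. For Atp6v1e1 the groups without beads were tied, at a mean of 11.61 each. The share of all genes with this order was not counted, and the outer steps are bead differences, none of which was called. The middle step of that order, from Gr1hi to Gr1lo, separated the arrays without overlap for Atp6v1a, Atp6v1h, Atp6v0d1 and Atp6ap2. The outer steps overlapped for Atp6ap2, and the step between the Gr1lo groups overlapped for Atp6v1a.

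**Figure D2:**
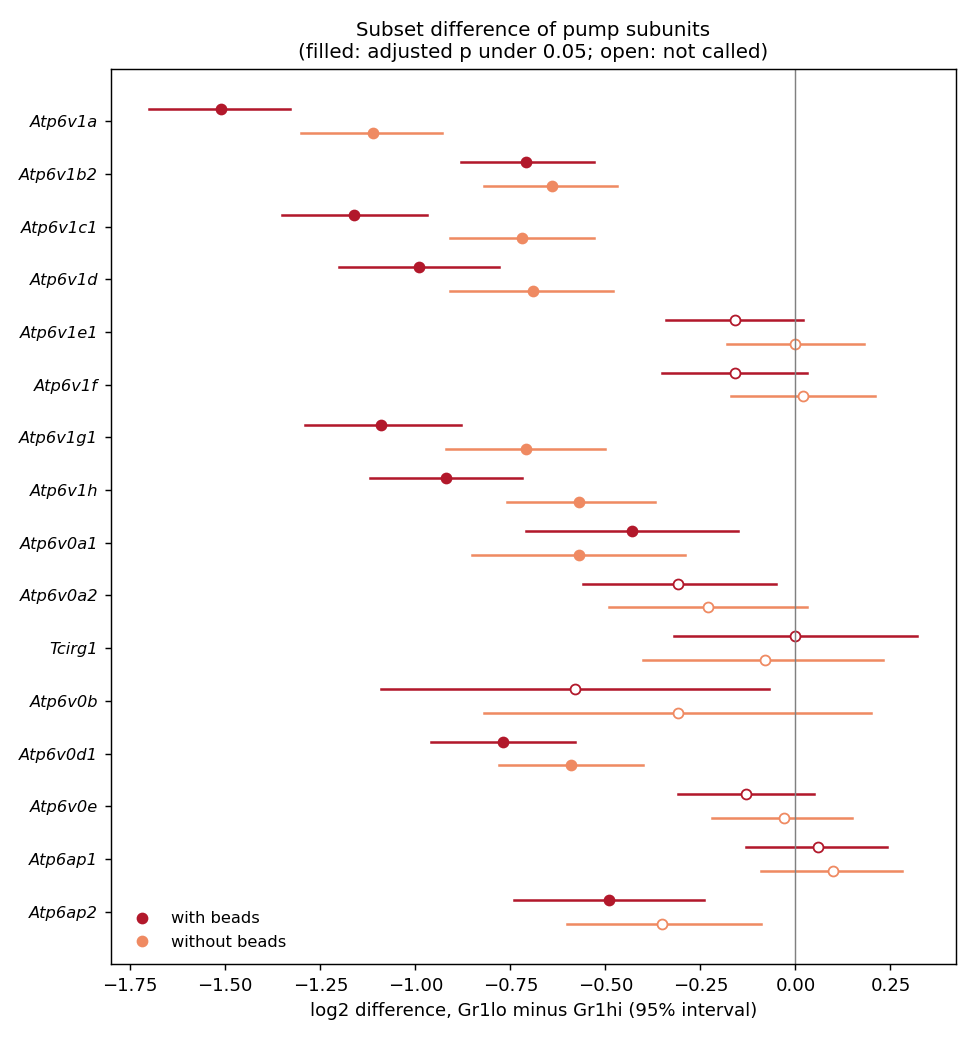
Log2 difference, Gr1lo minus Gr1hi (horizontal axis, points with 95% intervals), for 16 pump genes with a mean above background, among cells with beads (dark red) and without beads (orange); filled points have an adjusted p under 0.05. The points of Atp6v1a, Atp6v1c1, Atp6v1g1, Atp6v1d and Atp6v1h lie farthest to the left with beads, at -1.51 to -0.92, while those of Atp6v1e1, Atp6v1f, Tcirg1, Atp6v0e and Atp6ap1 lie near 0.

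The remaining subunits of the same pump were read from a list of 15 genes, of which 13 were measured and 6 had a mean above background. Including the 10 genes above, 8 V1 genes, 6 V0 genes and 2 accessory genes could be compared above background. In V1, 6 of 8 were lower in Gr1lo cells with beads, without beads and on average, and the median average difference was -0.79. In V0, 2 of 6 were lower with beads and without beads and 3 of 6 on average, with a median of -0.35. Of all genes above background, 24.3% were lower with beads, 20.9% without beads and 30.7% on average, so the V0 counts with beads and without beads are not far from that share. Together 10 of 16 were lower on average, 9 with beads and 8 without beads, and 0 were higher. A difference between the sectors was not tested.

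The further V1 genes that fell were Atp6v1g1 and Atp6v1d. Atp6v1g1, which pairs with E in the peripheral stalk, read 11.31 and 11.16 in Gr1lo cells with beads, 11.47 and 11.41 in Gr1lo cells without beads, 12.29 and 12.36 in Gr1hi cells with beads, and 12.10 and 12.21 in Gr1hi cells without beads, an average difference of -0.90 ± 0.06 (1.86-fold lower in Gr1lo, adjusted p = 1.45e-05 in limma). Atp6v1d, the shaft of the rotor, read 10.68 and 10.56 in Gr1lo cells with beads, 10.66 and 10.82 in Gr1lo cells without beads, 11.61 on both arrays of Gr1hi cells with beads, and 11.38 and 11.48 in Gr1hi cells without beads, an average difference of -0.84 ± 0.07 (1.79-fold lower in Gr1lo, adjusted p = 2.18e-05 in limma). Both separated the subsets without overlap, as the A, B, C and H subunits did. Atp6v1f, the other rotor subunit of V1, was not called (-0.07, 95% interval -0.20 to 0.07, adjusted p = 0.424).

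Among the a subunits, Tcirg1, the a3 isoform known from osteoclasts and lysosomes, read 10.17 and 9.90 in Gr1lo cells with beads and 10.14 and 9.75 in Gr1lo cells without beads, while its 4 Gr1hi arrays lay between these values. Its groups overlapped, with an average difference of -0.04 (95% interval -0.27 to 0.18, adjusted p = 0.786 in limma). Atp6v0a2, the a2 isoform of Golgi and endosomes, was lower by a small margin (-0.27 ± 0.08, 1.20-fold, adjusted p = 0.0304 in limma), and it lost its call under 6 of 15 alternative settings, 5 of which left out 1 array (-0.28 to -0.21, adjusted p of 0.0650 to 0.106). The kidney isoform Atp6v0a4 lay below background on all 8 arrays, as did Atp6v0d2, Atp6v1b1, Atp6v1c2, Atp6v1e2, Atp6v0e2 and Atp6v1g2. Atp6v1g2 was called lower all the same (-0.22, adjusted p = 0.0448), at levels of 6.05 to 6.44 that are not above background, and lost its call under 9 of the alternative settings. Atp6v0e, a small V0 subunit, was not called (-0.08, adjusted p = 0.297).

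Most genes had more than 1 probe set, and those above background were read beside the ones used. When all 34945 probe sets with 1 symbol were tested, the second probe set of Atp6v1a was lower in Gr1lo cells (-1.10), as were the second of Atp6v1b2 (-0.80), both others of Atp6v1c1 (-0.91 and -0.70) and both others of Atp6ap2 (-0.45 and -0.65), all called in limma. A second Atp6v1e1 probe set was called with a small difference (-0.19, adjusted p = 0.0488), unlike the brighter one. The other 2 Atp6v0b probe sets gave -0.48 and -0.27 and were not called. For Atp6v0a1 the only other probe set above background, at a mean of 7.07, gave -0.07 (adjusted p = 0.511), while 2 dimmer ones were called lower, so its probe sets disagree. The other 2 Atp6v1h probe sets lay below background and were not called. The probe sets used for Atp6ap1, Atp6ap2, Atp6v0b and Atp6v1e1 are of the classes that can match transcripts of more than 1 gene, as are the second of Atp6v1b2 (-0.80), both others of Atp6v0b, 1 other of Atp6ap2 (-0.45) and 1 other of Atp6v1h. The probe set used for Atp6v1c1 and 1 dim probe set of Atp6v0a1 are of the class that can match several transcripts of the same gene.

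**Figure D3:**
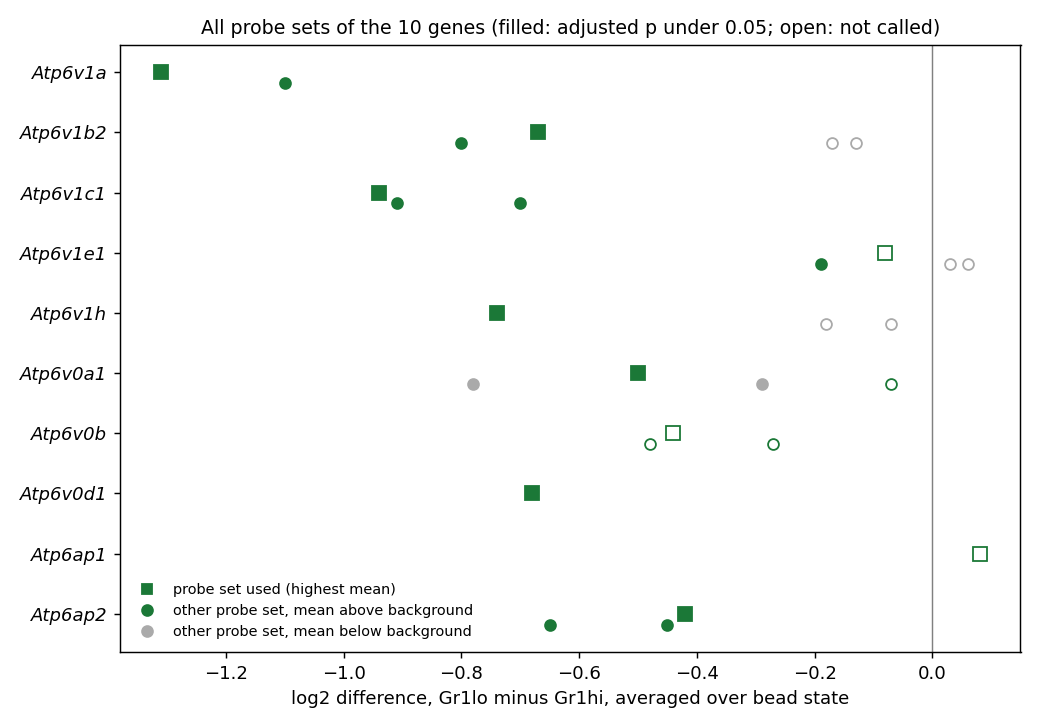
Log2 difference, Gr1lo minus Gr1hi averaged over bead state (horizontal axis), for every probe set of the 10 genes; squares are the probe sets used, green circles others with a mean above background and grey circles others below it, filled where the adjusted p over all probe sets is under 0.05. The probe sets above background lie together for Atp6v1c1 (-0.94 to -0.70) and apart for Atp6v0a1 (-0.50 and -0.07).

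How far the 10 genes move together was described over the 8 arrays, which share the subset difference and so are not independent points. Pearson's r of each gene with the mean of the other 9, after centring, was 0.99 for Atp6v0d1 and Atp6v1a, 0.98 for Atp6v1b2 and Atp6v1h, 0.94 for Atp6v1c1, 0.90 for Atp6ap2, 0.89 for Atp6v0a1, 0.76 for Atp6v1e1, 0.64 for Atp6v0b and -0.50 for Atp6ap1. The mean centred level of the 10 was -0.35 and -0.31 in Gr1lo cells with beads, -0.21 and -0.27 in Gr1lo cells without beads, 0.36 and 0.31 in Gr1hi cells with beads, and 0.25 and 0.22 in Gr1hi cells without beads. Among 8549 other named genes with a mean above background, the 5 whose pattern was most like this mean were Lamtor1 (r = 0.997), Snrpc (0.995), Eif3i (0.995), Gla (0.994) and Ndufa13 (0.994). Such likeness was common, since 1517 of these genes (17.7%) had an r above 0.9.

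Some markers of other cell types, and spiked controls, differed between the subsets. The counts of called markers stand beside 20.9% of all genes called lower and 14.8% called higher on average. Of 12 neutrophil markers 10 were measured, and 9 of these were lower in Gr1lo cells on average. Their mean log2 level was 6.87 to 6.92 in Gr1lo cells with beads, 6.93 to 7.25 in Gr1lo cells without beads, 8.71 to 9.05 in Gr1hi cells with beads and 9.29 to 9.63 in Gr1hi cells without beads, and 3 to 4 of the 10 lay above background on a Gr1lo array, against 5 to 9 on a Gr1hi array. Classical monocytes themselves express some of them, such as S100a8 and S100a9. The granule genes Camp, Ngp and Ltf lay below background on all 4 Gr1lo arrays. In Gr1hi cells Ngp read 7.46 and 6.80 with beads and 9.02 and 7.45 without beads. Of 9 dendritic cell markers measured, 4 were lower in Gr1lo cells on average, Flt3, Bst2, Clec10a and Kmo (-1.32 to -0.35), and Cd209a was higher (1.88). Of 9 B cell markers, Cd79b (0.84) and Cd22 (1.53) were higher. Calls in both directions were also found among 12 tissue macrophage markers (2 higher, 3 lower), 8 T cell markers (1 higher, 3 lower), 10 platelet markers (1 higher, 3 lower) and 5 erythroid markers (1 higher, 2 lower). Of 8 NK cell markers, 1 was higher. For the macrophage, platelet and NK lists these counts are not far from the shares of all genes. The mean of 9 dendritic markers was 6.53 to 6.68 in Gr1lo cells with beads and 7.23 to 7.36 in Gr1lo cells without beads, against 7.10 to 7.13 in Gr1hi cells with beads and 7.15 to 7.22 in Gr1hi cells without beads. That of the B cell markers was 6.29 to 6.39 in Gr1lo cells with beads and 6.06 to 6.09 in Gr1lo cells without beads, against 5.93 to 6.00 in Gr1hi cells with beads and 5.94 to 6.03 in Gr1hi cells without beads. All these B cell means lay below the background level of 6.98. A mean above background was found for only 2 of 9 B cell, 2 of 8 T cell, 2 of 8 NK cell and 4 of 9 dendritic markers. The mean of 24 spiked poly-A control probe sets was higher in Gr1lo cells at each bead state, at 10.44 and 10.45 in Gr1lo cells with beads against 9.45 and 9.86 in Gr1hi cells with beads, and at 9.27 and 8.68 in Gr1lo cells without beads against 7.75 and 8.11 in Gr1hi cells without beads. What part these markers and controls have in the subset difference was not tested. Of 8 markers shared by all monocytes, 6 were measured, and their mean level differed little, at 12.59 to 12.67 in Gr1lo cells with beads, 12.67 to 12.75 in Gr1lo cells without beads, 12.63 to 12.64 in Gr1hi cells with beads and 12.60 in Gr1hi cells without beads.

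Tissue macrophage markers set the Gr1lo arrays without beads apart from each other: the mean of 12 markers was 8.21 on the first and 6.79 on the second, beside 7.58 to 7.80 in Gr1lo cells with beads, 7.71 to 7.74 in Gr1hi cells with beads and 7.09 to 7.14 in Gr1hi cells without beads. Without the first of these arrays, 6 of the 10 pump genes stayed called lower in Gr1lo cells without beads, the same 6 genes as with all arrays. Without the second, 5 of these 6 stayed called, Atp6v0a1 being lost.

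The second comparison asked whether cells that carried beads differed from cells of the same subset that did not. In neither subset was any of the 10 pump genes called. The smallest p-values were those of Atp6v1c1 and Atp6v1a in Gr1hi cells, where both bead arrays read above both arrays without beads, and these missed the threshold after correction.

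In Gr1lo cells 0 of 10 genes were called in limma, against 0.225% of all genes, and 1 of 10 had an unadjusted p under 0.05, against 13.2%. The differences, with beads minus without, ran from -0.37 for Atp6v0b to 0.07 for Atp6v0a1. Their median was -0.06, beside 0.02 over all genes and -0.03 over the 8788 genes with a mean above background. The gene with the smallest p was Atp6v1h, at 9.03 and 8.90 with beads against 9.24 and 9.14 without (-0.23 ± 0.09, 95% interval -0.43 to -0.03, adjusted p = 0.332). Its arrays did not overlap, and 5 of 10 genes had both bead arrays lower in this way, against 19.4% of all genes, while 1 of 10 had both higher, against 23.3%. Of the 8788 genes above background, 2733 had both bead arrays lower and 1494 had both higher, so those genes leaned the same way as the 10. Atp6v1a (-0.04, 95% interval -0.23 to 0.14) and Atp6v1c1 (0.03, 95% interval -0.16 to 0.22) had intervals around 0. The value of Atp6v0b rested on the first array with beads, and without it the difference was 0.06. For Atp6v1b2 the probe set used gave -0.09. Its second probe set read 9.90 and 9.82 with beads against 10.24 and 10.22 without (-0.37, adjusted p = 0.210 over all probe sets in limma), so these disagree in size.

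In Gr1hi cells 0 of 10 genes were called in limma, against 0.247% of all genes, and 2 of 10 had an unadjusted p under 0.05, against 9.93%. The differences ran from -0.10 to 0.47 with a median of 0.09, beside -0.02 over all genes and -0.04 over those above background. Both arrays with beads lay above both without for 5 of 10 genes, against 19.2% of all genes, and below them for 2 of 10, against 25.0%. Of the 8788 genes above background, 1484 had both bead arrays higher and 2733 had both lower. Atp6v1c1 had 11.92 and 11.84 with beads against 11.36 and 11.46 without, a difference of 0.47 ± 0.08 (1.38-fold, 95% interval 0.28 to 0.66, adjusted p = 0.0872). It ranked 84 by p among all genes. Its other 2 probe sets went the same way, at 10.66 and 10.63 with beads against 10.28 and 10.29 without, and at 10.46 and 10.42 with beads against 10.02 and 10.09 without. The gene passed the threshold when limma was run with a trended, robust prior (adjusted p = 0.0144), which called 121 genes in all in place of 45.

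Atp6v1a in Gr1hi cells had 11.20 and 11.18 with beads against 10.87 and 10.80 without, a difference of 0.36 ± 0.08 (1.28-fold, 95% interval 0.17 to 0.54, adjusted p = 0.182 in limma). Its second probe set showed less, 10.49 and 10.58 with beads against 10.48 and 10.43 without, so the probe sets disagree in size. For Atp6v1e1 the probe sets disagreed in direction. The one used gave 0.08 in Gr1hi cells. A dimmer one above background read 8.64 and 8.68 with beads against 9.03 and 9.04 without (-0.38, adjusted p = 0.211 over all probe sets in limma). Among the subunits outside the 10, the bead difference of Atp6v1d was -0.12 in Gr1lo and 0.18 in Gr1hi cells, that of Atp6v1g1 -0.21 in Gr1lo and 0.17 in Gr1hi cells, and none of these was called.

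Averaged over both subsets, 0 of 10 genes were called in limma, against 0.764% of all genes, and 2 of 10, Atp6v1c1 (0.25, adjusted p = 0.116) and Atp6v1a (0.16, adjusted p = 0.253), had an unadjusted p under 0.05, against 15.3%. With the trended, robust prior Atp6v1c1 was called here too (adjusted p = 0.0304).

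Whether the bead difference itself was unlike in the subsets was tested as the Gr1lo difference minus the Gr1hi difference. This was negative for 9 of 10 genes, with a median of -0.17 beside 0.03 over all genes, and 0 of 10 were called in limma, against 0.0440% of all genes. An unadjusted p under 0.05 was reached by 3 of 10, against 7.84% of all genes: Atp6v1c1 (-0.43 ± 0.12, adjusted p = 0.528), Atp6v1a (-0.40 ± 0.11, adjusted p = 0.548) and Atp6v1h (-0.36 ± 0.12, adjusted p = 0.594). The same 3 genes are those whose subset difference was wider with beads than without by the most, as both contrasts are built from the same 4 group means.

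**Figure D4:**
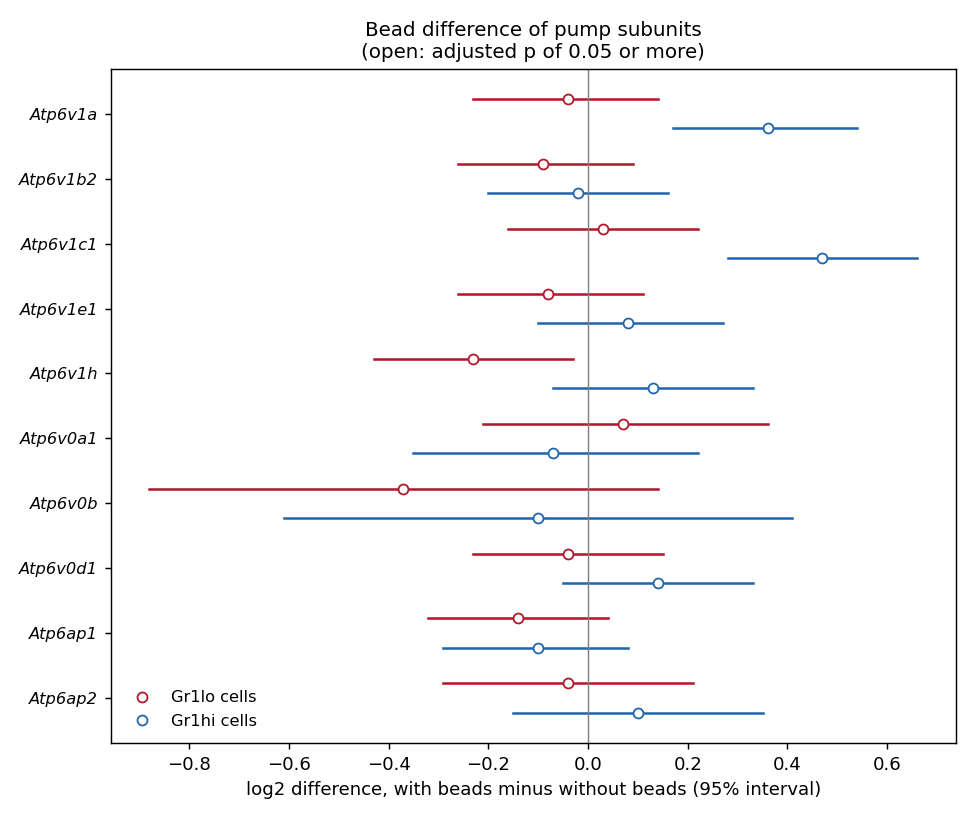
Log2 difference, with beads minus without (horizontal axis, points with 95% intervals), of the 10 pump genes in Gr1lo cells (red) and Gr1hi cells (blue); all points are open because none had an adjusted p under 0.05. The intervals of Atp6v1c1 (0.28 to 0.66) and Atp6v1a (0.17 to 0.54) in Gr1hi cells lie right of 0.

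Technical and marker values also moved with bead state. The poly-A controls given above were higher with beads in both subsets, and the mean of 18 hybridization control probe sets was 11.84 and 12.18 in Gr1lo cells with beads against 10.78 and 11.1 without, and 11.33 and 11.32 in Gr1hi cells with beads against 11.07 and 11.18 without. Of the 8 classical markers measured, 4 were called lower with beads in Gr1lo cells, where their mean was 9.55 to 9.59 with beads against 10.95 to 11.58 without. Of the 12 nonclassical markers 3 were called higher with beads in Gr1hi cells, where their mean was 8.88 to 8.90 with beads against 8.41 to 8.42 without. Of the 12 tissue macrophage markers, Spic and Slc40a1 were called higher with beads in both subsets, by 1.08 and 2.98 in Gr1lo cells and by 1.47 and 1.20 in Gr1hi cells. The mean of these 12 was higher on both Gr1hi arrays with beads than on both without, at the levels given above, in the cells where Atp6v1c1 and Atp6v1a had their bead differences. Of the dendritic markers, Cd209a (-3.13), Clec10a (-1.47) and Kmo (-1.35) were called lower with beads in Gr1lo cells, as were the NK cell marker Klrd1 (-2.40) and the neutrophil markers Mmp8 and Cd177. In Gr1hi cells the neutrophil marker Mmp9 (-0.91) and the erythroid marker Hba-a2 (-0.83) were called lower with beads and the T cell marker Cd28 (0.93) higher. The part of these controls and markers in the values of Atp6v1c1 and Atp6v1a was not tested.

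Genes that act around the pump were read from 3 further lists. The pump is put together in the endoplasmic reticulum by dedicated factors and its sectors are joined by rabconnectins, anion exchangers and cation channels shape the lumen beside it, and the Ragulator complex at the lysosome reads its state for mTORC1 and the MiT/TFE factors. Averaged over bead state, pump assembly and regulator genes went both ways in Gr1lo cells relative to Gr1hi cells: of 10 measured, all with a mean above background, 5 were lower and 4 higher, with a median of -0.14. The shares of all genes were 20.9% lower and 14.8% higher, or 30.7% lower among genes above background. Dmxl2, a rabconnectin, read 7.37 and 6.82 in Gr1lo cells with beads, 7.43 and 7.30 in Gr1lo cells without beads, 9.27 and 9.37 in Gr1hi cells with beads, and 9.18 and 9.47 in Gr1hi cells without beads. It was far lower in every Gr1lo array (-2.09 ± 0.12, adjusted p = 5.04e-06 in limma), and 1 Gr1lo array lay below background. Its partner Wdr7 was lower (-0.48) and its relative Dmxl1 higher (0.37). Of the factors that assemble V0, Vma21 (-0.45) and Ccdc115 (-0.35) were lower and Tmem199 (0.55) was higher. Of the TLDc proteins that bind V1, Oxr1 was higher (0.98, adjusted p = 0.000120 in limma) and Ncoa7 lower by a small margin (-0.26, adjusted p = 0.0476 in limma). The Ncoa7 difference changed sign, to 0.19, when all its probe sets were averaged. Its call was lost when any 1 of 6 arrays was left out. Rogdi, known from a complex with the rabconnectins, was higher (0.26), and Rnasek, a pump-associated protein, was not called (-0.03).

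Of 13 endolysosomal ion channels and exchangers measured, 11 of them with a mean above background, 7 were lower in Gr1lo cells on average and 2 higher, with a median of -0.34, beside the same 20.9% lower and 14.8% higher of all genes and 30.7% lower of those above background. The chloride-proton exchanger of lysosomes Clcn7 read 8.41 and 8.30 in Gr1lo cells with beads, 8.29 and 8.15 in Gr1lo cells without beads, 8.92 and 8.88 in Gr1hi cells with beads, and 8.74 on both arrays of Gr1hi cells without beads (-0.53, adjusted p = 0.000207 in limma). Its relatives Clcn5 (-0.41) and Clcn6 (-0.34) were also lower, Clcn6 with 3 of its 4 Gr1lo arrays below background, whereas Clcn3 was higher (0.56). The cation channel Tpcn1 was lower (-1.07, adjusted p = 5.40e-05) and Tpcn2 was called higher (0.68, adjusted p = 0.00110) with all 4 Gr1hi arrays below background, so that its size is bounded by background. Mcoln2 was called lower (-1.53) but lay below background on all 4 Gr1lo arrays, which bounds its size in the same way. Lrrc8a (-0.47) was lower as well, and so was Slc9a9 (-0.35), whose call was lost when any 1 of 5 arrays was left out (-0.36 to -0.26, adjusted p of 0.0805 to 0.117).

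Of 18 Ragulator, Rag and MiT/TFE genes measured, 17 of them with a mean above background, 11 were lower in Gr1lo cells on average and 1 was higher, with a median of -0.36, against 20.9% lower and 14.8% higher of all genes and 30.7% lower of those above background. Fnip2, a partner of folliculin, read 8.32 and 7.90 in Gr1lo cells with beads, 8.13 and 7.79 in Gr1lo cells without beads, 11.24 and 11.04 in Gr1hi cells with beads, and 10.62 and 10.56 in Gr1hi cells without beads. No array of 1 subset came near the other, and the difference was -2.83 ± 0.11 (7.10-fold lower in Gr1lo, adjusted p = 6.60e-07 in limma). Folliculin itself, Flcn (-1.24), and Fnip1 (-0.81) were also lower. Of the transcription factors, Mitf was lower (-1.43 ± 0.10, adjusted p = 1.45e-05 in limma), with 8.88 and 8.69 in Gr1lo cells with beads, 9.11 and 8.77 in Gr1lo cells without beads, 10.42 and 10.59 in Gr1hi cells with beads, and 9.96 and 10.23 in Gr1hi cells without beads. Tfec was called lower (-2.73, adjusted p = 2.78e-06) with all 4 Gr1lo arrays below background, while Tfeb (0.13, adjusted p = 0.241) and Tfe3 (-0.24, adjusted p = 0.0626) were not called. Of the Ragulator and Rag genes, Lamtor1 (-0.31), Lamtor2 (-0.53), Lamtor3 (-0.33), Lamtor4 (-0.83), Rraga (-0.38) and Rragc (-0.73) were lower, and the amino acid sensor Slc38a9 was higher (0.40). Rraga was lower in Gr1lo cells without beads (-0.80, adjusted p = 0.00405), whereas with beads its arrays overlapped and the difference was 0.03 (adjusted p = 0.903). Its call on average was lost without the second Gr1hi array with beads (-0.35, adjusted p = 0.0572) or the first Gr1hi array without beads (-0.36, adjusted p = 0.0568).

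With beads, 0 genes of these 3 lists were called in either subset by limma. In Gr1hi cells, 9 of the 18 Ragulator, Rag and MiT/TFE genes had an unadjusted p under 0.05, 8 of them higher with beads, set beside the 9.93% of all genes given above. The smallest p values belonged to Flcn (0.49, adjusted p = 0.222) and Rragd (0.43, adjusted p = 0.260), of which Rragd lay below background on all 8 arrays, at 4.43 to 5.05. Fnip2 differed by 0.55 and Mitf by 0.41. In Gr1lo cells, where 13.2% of all genes had such a p, 2 of the 18 did, Rraga (0.44) and Lamtor4 (-0.31), a share no higher than that of all genes. Among assembly genes, 1 of 10 had such a p in Gr1hi cells, Dmxl1 (0.33), and 2 of 10 in Gr1lo cells, Vma21 (-0.27) and Ccdc115 (-0.26). Among the channels and exchangers this was 0 of 13 in Gr1hi cells, where Clcn7 (0.16) and Tmem175 (-0.14) had the smallest p, and, beside the same 13.2%, 2 of 13 in Gr1lo cells, Tpcn1 (-0.65, adjusted p = 0.138) and Lrrc8a (-0.35).

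**Figure D5:**
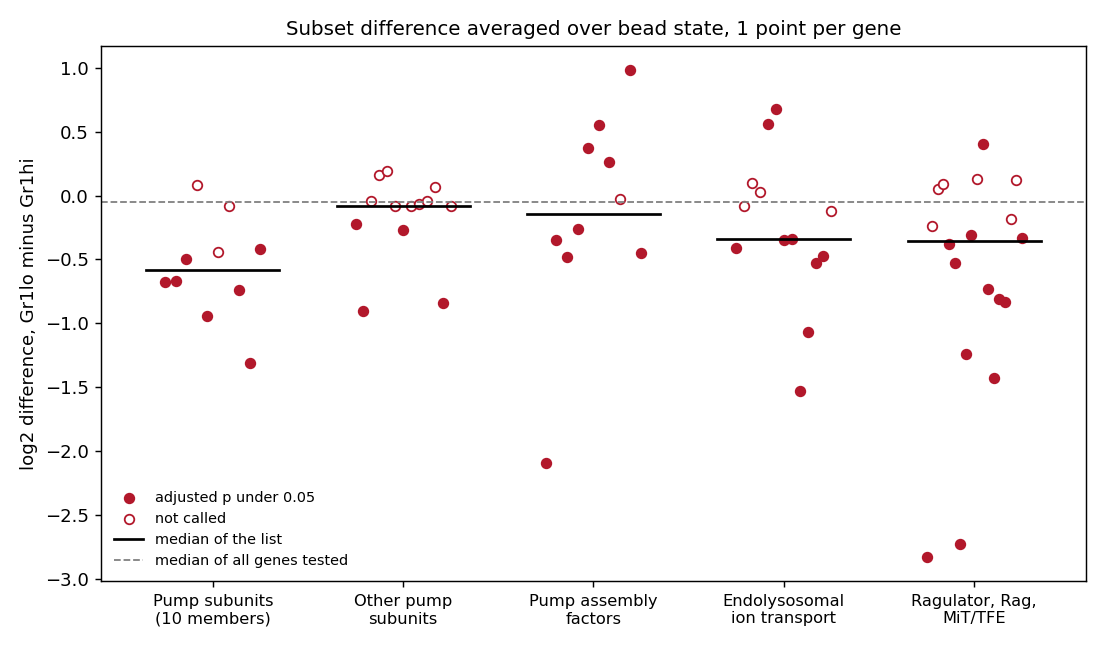
Log2 difference, Gr1lo minus Gr1hi averaged over bead state (vertical axis), with 1 point per gene for the 10 pump genes, the other pump subunits, assembly factors, endolysosomal ion transport genes, and Ragulator, Rag and MiT/TFE genes; filled points have an adjusted p under 0.05, solid lines are list medians and the dashed line is the median of all genes, -0.05. The medians are -0.59, -0.08, -0.14, -0.34 and -0.36 from left to right, the second over 13 genes of which 7 lie below background on all arrays, and the assembly list is spread to both sides, with 5 lower and 4 higher genes.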

How the data were processed

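The log2 values of 45101 probe sets on 8 Affymetrix mouse GeneChip arrays were deposited as 1 table, made by RMA in R with oligo per the submitters' processing notes and the series text, which also name limma; the sources used here give no versions. Per the labels' protocols, RNA was extracted with TRIzol and RNeasy, amplified and labelled with biotin. The values were used as deposited, and the number of arrays limits their precision.

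Probe sets with exactly 1 symbol (34945) were kept, 34741 of them matched to RefSeq (GRCm38.p6) by Entrez number with 0 symbols changed; 932 with several symbols, 9160 with none and 64 controls were left out. The brightest probe set stood for each of 18193 genes. A model with 4 group means was fitted with lmFit and moderated with eBayes (limma 3.58.1, R 4.3.3; prior degrees of freedom 4.48, residual 4), all tests two-sided with Benjamini-Hochberg adjustment over all genes. SE is the moderated standard error. A gene was called, and is said to be lower or higher, at an adjusted p under 0.05. Where leaving out an array leaves a group with 1, that array is assumed to vary like the others. Nothing says that the replicates are separate mice beyond the word biological, so p-values measure the spread between these arrays.

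The 10 genes, the other lists and the tests were chosen with earlier results of these data known. Named are the 10 genes, called genes of the other pump lists and otherwise the 2 with the smallest p, isoform alternatives, and the 5 genes of the most similar pattern. The fit was checked on artificial data with 200 of 18193 genes changed, over 5 runs: a change of 0.5 log2 units was recovered in 32.1% of genes for beads in Gr1lo cells, 32.6% for beads in Gr1hi cells, 93.7% for their average, 0.0% for their difference, 30.3% for the subsets with beads, 38.4% without beads and 93.0% for the subset average, and a change of 1 log2 unit in 91.8% or more. Of the genes called there, 0.0% to 10.3% were false with changes of 0.5 (9.8% for beads in Gr1lo cells, 8.9% in Gr1hi cells) and 5.0% to 7.0% with changes of 1, beside the 5% aimed at. Alternatives were genes above background only, the mean of a gene's probe sets, every probe set, the compared arrays alone, a trended robust prior, a block for the replicate number, median centring, cyclic loess and each array left out. Tables were prepared with pandas 2.3.3 (Python 3.11.15) and drawn with matplotlib 3.10.9.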

Additional observations from a re-analysis of the deposited data

How the results depend on the processing

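Over 101 differences of named genes and 1560 alternative values, 1536 kept their direction and 24 turned. Of the 1536 that kept their direction, 1485 were called or not called as before, 41 lost a call and 10 gained one. The number of the 10 pump genes called ranged from 5 to 7 for the subsets with beads, 5 to 7 without beads and 7 to 8 on average. With beads it was 0 in all alternatives in Gr1lo cells and for the difference between subsets. It became 1 with the trended, robust prior in Gr1hi cells and on average, Atp6v1c1 both times. Over all genes that prior called 127 in place of 41 in Gr1lo cells, 121 in place of 45 in Gr1hi cells, 326 in place of 139 on average and 17 in place of 8 for the difference; above background only, the average gave 222, the difference gave 5 above background only and 5 with probe sets averaged, and the compared arrays alone gave 12 in Gr1lo cells. Leaving out single arrays gave 17 to 354, 0 to 58, 29 to 428 and 1 to 167 genes for these 4 comparisons, the highest in Gr1lo cells, on average and for the difference without the second Gr1lo array without beads, and 2631 to 4125 in place of 4288 for the subsets without beads. Averaging probe sets took Atp6v1h without beads to -0.21 (adjusted p = 0.128), a mean that includes its 2 probe sets below background, and gave Atp6ap2 without beads a call (-0.40, adjusted p = 0.0181).

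Bead differences in Gr1lo cells turned under cyclic loess for Atp6v0d1 (0.04), Atp6v1a (0.03), Atp6v1b2 (0.00), Atp6v1e1 (0.01) and Atp6ap2 (0.05), and with single arrays left out ranged from -0.08 to 0.22 for Atp6v0a1, -0.79 to 0.06 for Atp6v0b and -0.13 to 0.04 for Atp6ap2. In Gr1hi cells they turned for Atp6v1b2 under cyclic loess (0.01) and Atp6v1e1 with probe sets averaged (-0.06), and ranged from -0.16 to 0.03 for Atp6v0a1 and -0.00 to 0.20 for Atp6ap2. The difference between bead effects ranged from -0.70 to 0.15 for Atp6v0b. The subset difference of Atp6v1e1 without beads was 0.03 median centred, 0.04 under cyclic loess and -0.01 to 0.01 with arrays left out. Average subset differences turned for Atp6v0e (0.00) and Atp6v1f (0.01) under cyclic loess and Ncoa7 (0.19) with probe sets averaged, and ranged from -0.14 to 0.06 for Tcirg1. None of these pump genes was called in that comparison in either direction. The causes were not tested. Median centring and cyclic loess moved the median of all genes by at most 0.031 and 0.040.

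Whether arrays with the same replicate number share mice is not given in the sources used here. Deviations of same-numbered arrays correlated at 0.27 within Gr1lo, 0.36 within Gr1hi and -0.02 to 0.09 across subsets. The block for the replicate number was shared by both subsets, so pairing within each subset was not tested. With the number as a block, 7 pump genes were called for the subsets with beads, 6 without beads and 7 on average, and 0 in each bead comparison, while 54 genes in place of 41 were called with beads in Gr1lo cells and 56 in place of 45 in Gr1hi cells.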
